A study of Mus musculus with 44 samples.

Results

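The 9 genes described here mark microglia, the resident immune cells of the brain, and were measured in RNA from the hippocampus of young male mice. They were the fractalkine receptor gene Cx3cr1, the purine receptor gene P2ry12, the growth factor receptor gene Csf1r, the complement genes C1qa, C1qb and C1qc, and Tmem119, Aif1 and Trem2. They were chosen by name, as the rows of the count table whose Ensembl identifier maps to these symbols in the GENCODE annotation of GRCm38, and all 9 were present among the 55335 genes of the table. RNA was taken from Emx1-IRES-Cre mice crossed to NuTRAP, a line in which Cre-expressing cells carry tagged ribosomes and tagged nuclei, and ribosome-bound RNA was pulled down by translating ribosome affinity purification (TRAP). Mice had a running wheel from postnatal day 21 to 41 (early-life exercise, ELE) or stayed sedentary, and the 20 TRAP libraries fell into 6 groups. In the SIT isolation, which takes RNA and nuclei from the combined hippocampi of a mouse, there were 4 ELE and 4 sedentary mice, and in the separate isolation there were 3 ELE and 3 sedentary libraries from the left and as many from the right hippocampus. A second table held 24 columns of unfractionated RNA from the left dorsal hippocampus of wild-type C57Bl/6J mice that were sedentary or ran from postnatal day 21 to 27, 35 to 41 or 21 to 41, some of them trained on an object location task for 3 or 10 min. Its columns, which include LBN21.1.1, LBN21.1.2 and 4 named HC, could not be tied to these treatments, so they served together as a single bulk reference. Emx1-Cre marks mainly excitatory neurons of the forebrain and progenitors that also give astrocytes, so RNA outside that lineage is not what the pull-down is meant to keep.

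Microglia arise from the yolk sac and not from the Emx1 lineage. They survey the tissue with moving processes, need signals through Csf1r to survive, listen to neurons through Cx3cr1, and mark synapses and debris with complement C1q. By lineage, their transcripts are not made by the tagged cells. In such libraries fewer microglia and less RNA per microglial cell cannot be told apart.

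The letters GAGGAA are the core that the macrophage factor PU.1 (gene Spi1) is known to bind. RefSeq promoter entries on GRCm38.p6 were at hand for 6 of the 9 genes, and 4 of them (C1qb, C1qc, Aif1 and Trem2) held GAGGAA on either strand in the 250 bases before the start, against 7639 of 32851 promoter entries in all (23.3%) and 11 of 28 entries of further microglial genes (39.3%). Cx3cr1 and P2ry12 held no match in that window. The stretches around the matches are shown because these genes carry the levels described below. They read 5′ to 3′ on the strand of the gene, and the capitals mark GAGGAA or its reverse complement TTCCTC.
C1qb, chr4:136886201-136886257, minus strand: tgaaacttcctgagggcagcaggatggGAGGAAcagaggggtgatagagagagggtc
C1qc, chr4:136893075-136893134, minus strand: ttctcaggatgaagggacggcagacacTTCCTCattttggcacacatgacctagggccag
Aif1, chr17:35176053-35176086, minus strand: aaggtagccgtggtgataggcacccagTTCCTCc
Trem2, chr17:48346334-48346393, plus strand: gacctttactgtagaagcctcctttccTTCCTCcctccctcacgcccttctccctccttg
The match lay 24 bases from the start in C1qb, 187 in C1qc, 1 in Aif1 and 34 in Trem2. The matches describe the letters and say nothing of binding in these mice.

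Libraries held between 45895097 and 65767802 counts in the TRAP table and between 39856044 and 61636303 in the wild-type table. Levels are given as CPM, counts scaled to a common library total that includes mitochondrial counts. The mitochondrial share of the wild-type columns was not computed, and its part in levels relative to bulk was not tested. The libraries of 2 sedentary SIT mice, numbered NT7.2.3 and NT7.2.4, stood apart from the other 18 in mitochondrial counts, which made up 8.64% and 9.64% of their total against 0.0704% to 0.523% in the others. The study left these out of its SIT comparison together with the ELE SIT library NT6.304, and most results that rest on them are given with and without them. Comparisons of sedentary libraries only are given with NT7.2.3 and NT7.2.4 alone.

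In 18 of the 20 TRAP libraries the 9 microglial genes together had 153 to 588 counts. Their summed level ran from 2.86 to 11.4 CPM with a median of 4.85 CPM, and the mean was 5.51 ± 2.22 CPM (SD, n = 18). The 24 bulk columns held 260.4 to 313.0 CPM, with a mean of 285 ± 15.3 CPM (SD, n = 24). No value of the 18 came near the bulk range.

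The libraries NT7.2.3 and NT7.2.4 were the exception, with 228.5 and 236.0 CPM. These are 80.4% and 83.0% of the bulk median, whereas the other 18 lay between 1.0% and 4.0% of it. All 9 genes were higher in both NT7.2 libraries than in each of the other 18, as were 7.81% of the 21203 genes compared. For 8 of the 9 the lower of the NT7.2 values was over 5 times the highest of the 18, which held for 0.726% of genes. Aif1, at 2.57 times, was the gene that fell short of this. These are descriptions of 2 libraries and carry no test.

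**Figure D1:**
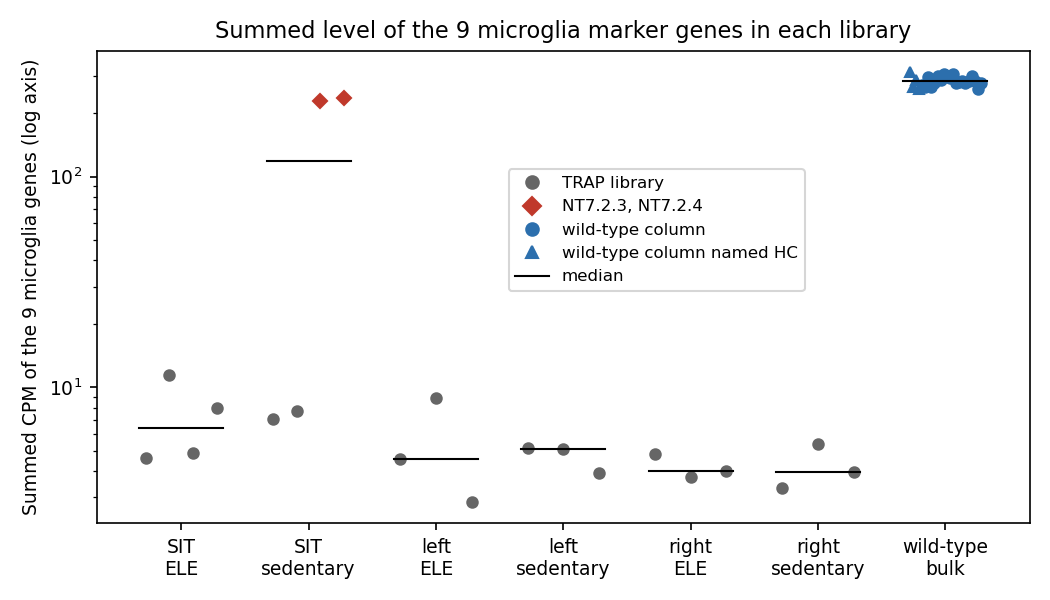
Summed level of the 9 microglial genes in each TRAP library and wild-type column, in CPM on a log axis, by group; each point is a library. The 18 TRAP libraries other than NT7.2.3 and NT7.2.4 lie between 2.86 and 11.4 CPM, and these 2 libraries lie at 228.5 and 236.0 CPM, just under the bulk columns.

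The receptors were far lower in the 18 TRAP libraries than in bulk. Csf1r, the receptor for the growth factors Csf1 and Il34, had a bulk median of 88.4 CPM and a median of 1.31 CPM over the 18 libraries, a ratio of 67.6. In NT7.2.3 and NT7.2.4 it stood at 49.6 and 45.8 CPM, or 56.1% and 51.8% of the bulk median, the smallest shares among the 9 genes. Cx3cr1, on chr9:119901616-120069879, had medians of 52.1 CPM in bulk and 0.575 CPM in the 18 libraries, and 36.6 and 42.9 CPM in the NT7.2 libraries. P2ry12, which lets microglial processes follow ATP and ADP, lies on chr3:59216272-59262871 and had medians of 26.9 and 0.748 CPM, with 23.9 and 27.4 CPM in the NT7.2 libraries. For each receptor the bulk values lay above all 18 libraries without overlap.

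C1qa, C1qb and C1qc encode the chains of C1q, the recognition part of the classical complement pathway, and lie next to each other on chromosome 4 between 136880129 (the low end of C1qb) and 136898803 (the high end of C1qa). Their bulk medians were 32.2, 29.0 and 30.4 CPM in that order. Over the 18 libraries their medians were 0.572, 0.370 and 0.324 CPM, which puts the bulk 56.3, 78.4 and 93.7 times higher. In the NT7.2 libraries the chains were at the bulk level, between 96.5% and 108.2% of its median. These shares were larger than those of Csf1r in the same libraries.

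Tmem119, a membrane protein used to tell microglia from other macrophages, had a bulk median of 18.5 CPM and a median of 0.290 CPM in the 18 libraries, 4 of which had no Tmem119 count. It reached 96.9% and 94.4% of the bulk median in NT7.2.3 and NT7.2.4. Trem2, a lipid-sensing receptor that signals through Tyrobp, had a bulk median of 2.96 CPM, a median of 0.140 CPM over the 18 libraries and no count in 5 of them. A count of 0 allows up to 3 counts, by counting error only. In the NT7.2 libraries it stood at 189% and 231% of the bulk median.

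Aif1, which encodes the calcium-binding protein IBA1 stained to show microglia, did not follow the others. Its bulk values ran from 0.264 to 1.37 CPM and those of the 18 libraries from 0.165 to 0.747 CPM, so that the groups overlapped. The NT7.2 libraries held 1.92 and 2.96 CPM, above every bulk column. The TRAP table counts reads on Ensembl gene models and the wild-type table lists genes by symbol, and the part of the gene models in the low bulk value of Aif1 was not tested. For the other 8 genes all 24 bulk columns lay above all 18 TRAP libraries, as they did for 8.42% of the 19606 genes compared.

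**Figure D2:**
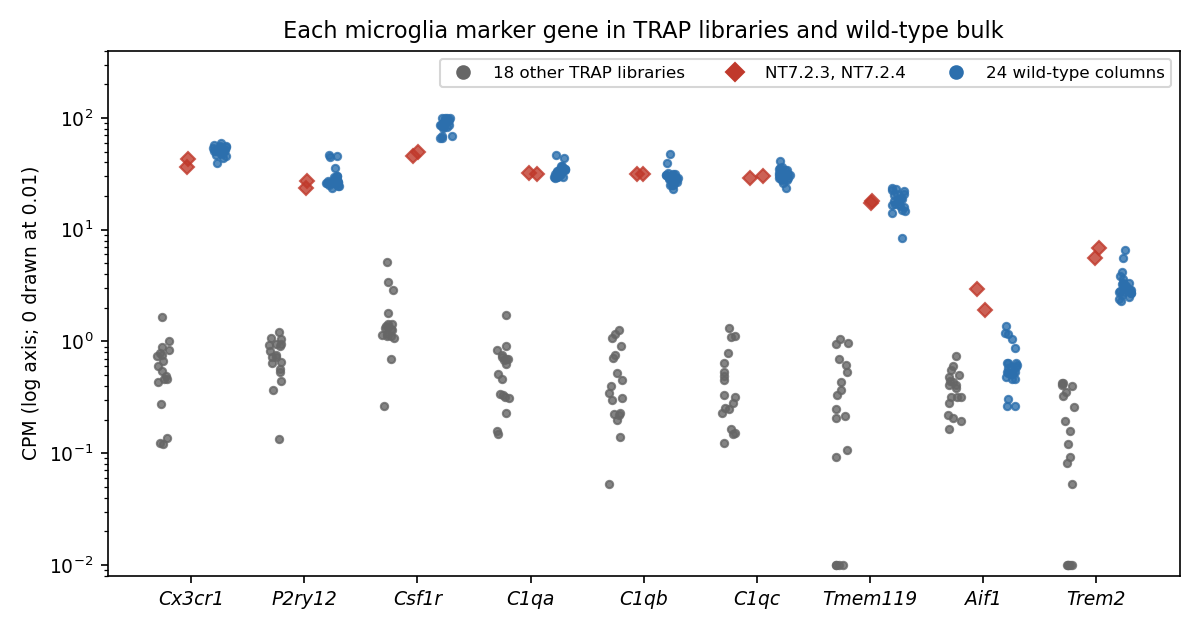
CPM of each of the 9 microglial genes, side by side on a log axis, in the 18 other TRAP libraries, in NT7.2.3 and NT7.2.4, and in the wild-type columns. For 8 of 9 genes the bulk columns lie above the 18 TRAP libraries without overlap, and for Aif1 they overlap.

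The order of levels between genes can be read only per length. In RPKM (reads per kilobase of exon, scaled to the library total), the NT7.2 libraries had C1qa highest at 30.6 ± 0.178 and C1qb next at 28.8 ± 0.0240 (mean ± SD, n = 2). C1qc followed at 15.4 RPKM, P2ry12 at 10.1, Cx3cr1 at 8.82, Csf1r at 8.26, Tmem119 at 7.65, Aif1 at 1.59 and Trem2 at 1.26 RPKM. The values of P2ry12 and Cx3cr1 overlapped between the 2 libraries, as did those of Cx3cr1 and Csf1r and of Aif1 and Trem2. In the other 18 libraries C1qa and C1qb again came first, at 0.559 ± 0.355 and 0.474 ± 0.345 RPKM, and Trem2 last at 0.0370 ± 0.0339 RPKM (SD, n = 18). Cx3cr1, at 0.136 ± 0.0824 RPKM, ranked eighth there. Neighbours in that order lay within their SDs, except Trem2 below Cx3cr1.

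Other markers moved with the NT7.2 libraries too. Of 26 further genes known from microglia, 25 were above all 18 other libraries, and 15 of these were over 5 times the highest of them. The exception was Ltc4s. Their summed level was 268 and 276 CPM against 22.9 to 37.7 CPM in the 18 libraries and 324 to 410 CPM in bulk. Among the most abundant of them, Laptm5 stood at 33.6 and 30.5 CPM against at most 2.64 CPM, and Sall1, a transcription factor of microglia that other cells also use, at 15.3 and 17.6 CPM against at most 11.4 CPM.

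The same libraries were high in genes of other cells outside the Emx1 lineage. All 4 globin genes of red cells were above the 18 others, with summed levels of 180 and 514 CPM against 2.30 to 31.4 CPM. Of 10 interneuron genes, 9 were above them, with sums of 865 and 894 CPM for these 9 against 47.8 to 115 CPM. The exception was Npy, which reached 772 CPM in NT6.304 and 296 CPM in TG9.1.4 against 45.4 and 36.1 CPM in the NT7.2 libraries. Of 10 detected genes of border macrophages, the macrophages of meninges and vessels, 5 were above, and Pf4, Lyve1, Cd163, H2-Eb1 and H2-Ab1 were not. The whole list of 11 summed to 17.64 and 21.12 CPM, against 1.13 to 5.76 CPM in the 18 libraries. Of 10 endothelial genes 2 were above, at 27.25 and 30.54 CPM in sum, within the 3.56 to 42.6 CPM of the others and under the bulk at 107 to 219 CPM. Astrocyte genes were above in 0 of 10 and excitatory neuron genes in 1 of 10, oligodendrocyte genes in 4 of 10, genes of meninges and choroid plexus in 3 of 10 and genes of activated microglia in 1 of 8. What share of the microglial signal goes with cells other than microglia was not tested.

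**Figure D3:**
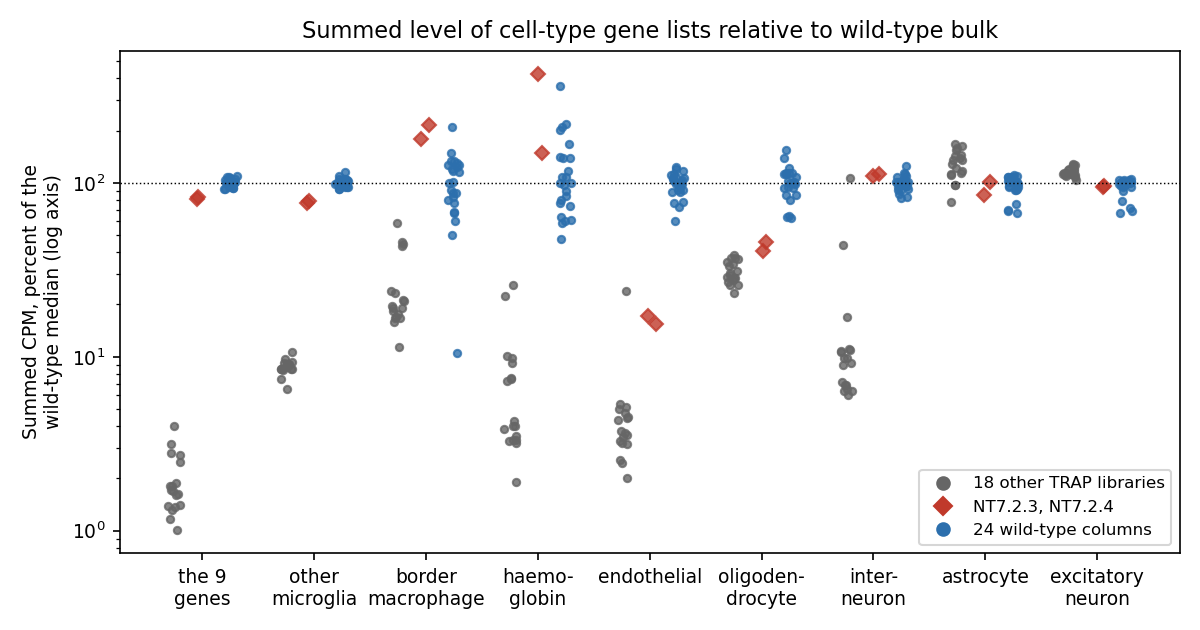
Summed CPM of each cell type's marker list in every TRAP library, as a percent of the median of the 24 wild-type bulk columns, on a log axis. NT7.2.3 and NT7.2.4 stand at 80.4% and 83.0% for the 9 microglial genes, where the other 18 libraries lie between 1.0% and 4.0%.

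The depletion in the separate isolation was tested against the bulk columns with edgeR's quasi-likelihood test over 18877 genes, at a Benjamini-Hochberg adjusted p under 0.05. All 9 genes were lower in the separate TRAP libraries, where 38.6% of all genes were lower. Cx3cr1 had the largest difference, a log2 fold change of -6.87 (SE 0.39, adjusted p = 6.65e-20), which is 117-fold. C1qc followed at -6.76 (SE 0.41), C1qb at -6.46 (SE 0.39), Tmem119 at -6.28 (SE 0.50), C1qa at -6.14 (SE 0.41), Csf1r at -5.91 (SE 0.40) and P2ry12 at -5.30 (SE 0.36). Trem2 was lower by -4.40 (SE 0.50) and Aif1 by -1.06 (SE 0.25, adjusted p = 2.61e-04 in the same edgeR test). The median over the 9 genes was -6.14, against -0.08 over all genes. The 26 further microglial genes were lower in 26 of 26 cases with a median of -5.44. Genes of some other cells were lower too, the endothelial ones in 10 of 10 cases (median -5.00), the globin genes in 4 of 4 (-4.86), the interneuron ones in 9 of 10 (-4.45) and the oligodendrocyte ones in 9 of 10 (-1.77). Astrocyte genes were higher in 6 of 10 cases and lower in 1 (median 0.30), and excitatory neuron genes were higher in 5 and lower in 3 of 10 (median 0.04). Mice, tissue (dorsal or whole hippocampus), RNA isolation and gene models differ between the tables, and the part of each cannot be told apart.

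For the SIT isolation, with all 8 libraries, 8 of 9 genes were lower than bulk, where 36.5% of genes were lower. Log2 fold changes of the genes that passed ran from -3.79 for Cx3cr1 (SE 0.38) to -2.14 for Trem2 (SE 0.52), and Aif1 did not pass with 0.49 (SE 0.27, edgeR adjusted p = 0.101). Without the 4 bulk columns named HC, an alternative chosen after seeing the data, Aif1 was called higher at 0.71, and with only these columns as bulk it was not called and all 9 genes were at -0.35 or below. Without NT7.2.3 and NT7.2.4 again 8 of 9 were lower, with 37% of 19329 genes lower, and Cx3cr1 then stood at -5.90 (SE 0.24), a 59.6-fold difference. C1qa was at -5.51 (SE 0.31), Csf1r at -5.72 (SE 0.38) and Aif1 at -0.19 (SE 0.30). With only the sedentary SIT libraries, 2 of the 4 being NT7.2, 4 of the 9 differed from bulk, where 55.4% of 18481 genes did in either direction. Cx3cr1, P2ry12 and Csf1r were lower and Aif1 was higher.

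The partners of the microglial receptors differed among themselves in direction. Cx3cl1, the neuronal ligand of Cx3cr1, was higher in the separate TRAP libraries than in bulk, with a log2 fold change of 1.04 (SE 0.08), and so was Il34, a neuronal ligand of Csf1r, at 0.71 (SE 0.08). Csf1, the other ligand of that receptor, was lower at -0.47 (SE 0.10). The ligand Cd47, which restrains uptake by phagocytes, was higher at 0.70 (SE 0.08) and Cd200 did not pass at 0.06 (SE 0.07, edgeR adjusted p = 0.496). Its receptor gene Cd200r1 had no count in the 18 TRAP libraries outside NT7.2 and a bulk median of 0.046 CPM, so that no fold is given. Partners made by microglia were lower. Tyrobp, the adaptor of Trem2, was at -5.78 (SE 0.47), and Itgam and Itgb2, which together form complement receptor 3, were at -7.25 (SE 0.46) and -5.23 (SE 0.44). Of 16 such partner genes 6 were higher, a share near the 32.1% of all genes that were, and 9 were lower, where 38.6% of all genes were. Cd200r1 is among the 9, but it passed the filter only through columns outside the separate libraries. Its direction was thus set in advance and is no result. In the complement pathway C4b was higher at 2.01 (SE 0.14), whereas C3 was at -2.20 (SE 0.36), C1s1 at -2.21 (SE 0.60) and C1ra at -0.83 (SE 0.33). Sirpa at 0.26 (SE 0.05) and Apoe at 0.79 (SE 0.08) were higher and Tgfb1 at -2.79 (SE 0.30) was lower.

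The isolations were compared with each other over all 20 TRAP libraries. With edgeR, 8 of 9 genes were higher in SIT at an adjusted p under 0.05, where 8.21% of 19935 genes were higher. Log2 fold changes ran from 1.55 for Aif1 (SE 0.33) to 3.70 for C1qc (SE 0.60), and Trem2 did not pass at 2.26 (SE 0.86, edgeR adjusted p = 0.0802). With sedentary libraries only, 2 of the 4 from SIT being NT7.2, 9 of 9 were higher, from 2.39 to 6.27, where 9.64% of 18718 genes were called in either direction. The count of 8 rested on NT7.2.3 and NT7.2.4. Without them 2 of 9 genes were higher, where 7.86% of 20412 genes were. These were C1qc, at 1.47 (SE 0.42, edgeR adjusted p = 0.0206), and C1qb, at 1.39 (SE 0.45, edgeR adjusted p = 0.0417). P2ry12 was at -0.03 (SE 0.38) and Csf1r at 0.18 (SE 0.45). Without NT6.304 as well, C1qc alone passed, where 9.34% of 20345 genes were higher. It stood at 1.40 (SE 0.45, edgeR adjusted p = 0.0354), and P2ry12 and Csf1r were below 0.

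The C1q values by library show this difference. C1qc in the SIT ELE libraries was 0.534, 1.12, 0.454 and 1.33 CPM, and in the sedentary SIT libraries other than NT7.2 it was 0.491 and 1.09 CPM. In the separate libraries it was 0.254, 0.636 and 0.229 CPM (left ELE), 0.123, 0.330 and 0.248 CPM (left sedentary), 0.793, 0.152 and 0.319 CPM (right ELE) and 0.283, 0.164 and 0.148 CPM (right sedentary). The ranges overlapped through a left and a right ELE library. C1qb ran from 0.344 to 1.26 CPM in those 6 SIT libraries and from 0.0529 to 0.916 CPM in the 12 separate ones, which overlap as well. These levels stand for 3 to 70 counts of the 2 genes in a library. Without NT7.2 the SIT isolation was also higher in 4 of 4 globin genes and 5 of 10 interneuron genes, and in 2 of 24 tested further microglial genes, of which 3 were lower. Oligodendrocyte genes were higher in 4 of 10 cases and excitatory neuron genes in 4 of 10, with 3 lower, while astrocyte genes were lower in 7 of 10 and endothelial genes in 2 of 10. Their part in the C1q difference was not tested. The isolations used different mice, and the effects of mouse and isolation cannot be told apart.

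**Figure D4:**
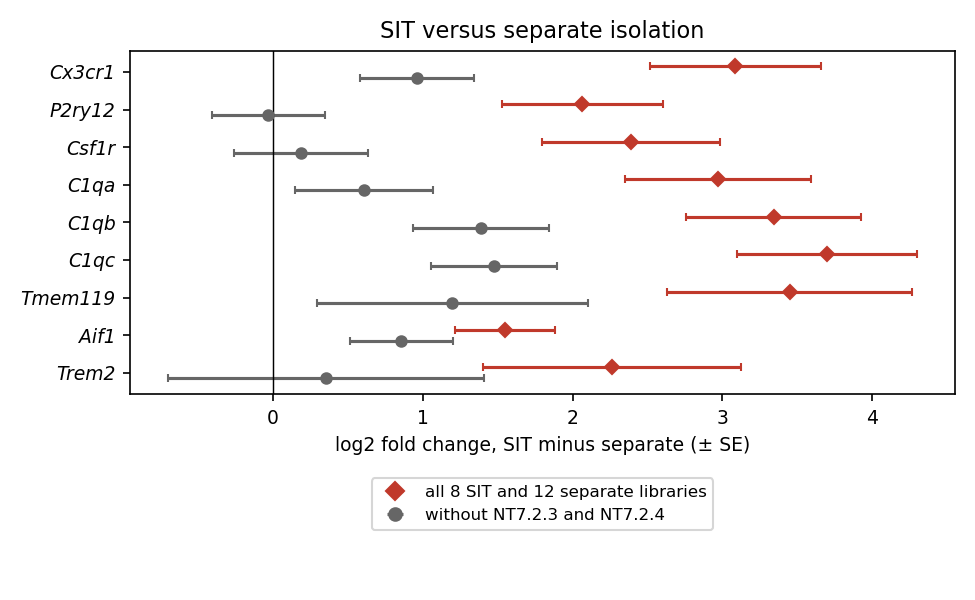
Log2 fold change of each microglial gene between the SIT and the separate isolation, with its standard error, over all 20 libraries and without NT7.2.3 and NT7.2.4. With all libraries the values run from 1.55 to 3.70, and without these 2 from -0.03 to 1.47.

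Exercise was compared within each isolation and side, by the threshold form that the study used. A gene was called where its p before adjustment was under 0.05 and its log2 fold change was over 0.39 in size. In SIT, with the 3 ELE and 2 sedentary libraries that the study compared, 0 of 9 genes were called, and 3.65% of 18238 genes were. Log2 fold changes of ELE against sedentary ran from -1.04 for Cx3cr1 (SE 0.85) to 0.43 for Tmem119 (SE 1.004), with SEs of 0.48 to 1.66. The Cx3cr1 counts were 7, 32 and 53 in the ELE libraries and 40 and 83 in the sedentary ones. After Benjamini-Hochberg adjustment edgeR called 0 of the 18238 genes (0%). The libraries are from different mice, and the p-values measure the spread between these mice. The sedentary libraries compared, NT6.305 and NT6.306, carry NT6 numbers, whereas TG7.4.1 and TG7.4.2 among the ELE ones do not. Effects of exercise and of the first part of the mouse number therefore cannot be fully told apart. Within the 4 mice numbered NT6, which include NT6.304, 0 of 8 tested genes were called, where 6.65% of 17738 genes were.

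With all 8 SIT libraries in the same comparison, all 9 genes were called lower in ELE, where 5.41% of 17531 genes were lower, with log2 fold changes from -5.11 for Cx3cr1 (SE 1.25) to -1.74 for Aif1 (SE 0.59). In the same fit interneuron genes were lower in 9 of 10 cases, globin genes in 4 of 4, endothelial genes in 6 of 7, genes of meninges and choroid plexus in 6 of 10 and oligodendrocyte genes in 4 of 10. The smallest Benjamini-Hochberg adjusted p of the 9 in edgeR was 0.403. Cx3cr1 in the 4 ELE libraries was 0.120, 0.831, 0.606 and 1.01 CPM, and in the 4 sedentary libraries 0.786, 1.65, 36.6 and 42.9 CPM. NT7.2.3 and NT7.2.4 were the only libraries above 2 CPM. Leaving out only these 2 and keeping NT6.304, 0 of 9 genes were called, where 2.75% of 18556 genes were, and Cx3cr1 stood at -0.89 (SE 0.79).

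In the left hippocampus 0 of 9 genes were called between 3 ELE and 3 sedentary libraries, where 2.07% of 17750 genes were, and none of these passed Benjamini-Hochberg adjustment (0%). Cx3cr1 was 0.459, 0.898 and 0.459 CPM in ELE and 0.740, 0.494 and 0.673 CPM in the sedentary libraries, and its log2 fold change was -0.07 (SE 0.47). The groups overlapped. The widest change was that of Tmem119, at 1.53 (SE 1.48), a gene with 0 counts in a library of each group.

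In the right hippocampus 8 of the 9 genes passed the filter on low counts, Trem2 being the one that did not, and 1 of 8 was called. That was Cx3cr1, lower in ELE by a log2 fold change of -1.65 (SE 0.67, unadjusted p = 0.0340 in edgeR). Its counts were 14, 9 and 7 in ELE and 25, 21 and 41 in sedentary mice, or 0.278, 0.137 and 0.124 against 0.545, 0.431 and 0.756 CPM. The Benjamini-Hochberg adjusted p of Cx3cr1 in edgeR was 0.9998. Of all 17570 genes 1.97% were called, and 0% after adjustment. The call was kept without TG7.3.1 (-2.10) and lost without TG9.1.3, TG9.2.1, TG7.3.3, TG9.1.1 or TG9.2.3, with Cx3cr1 then between -1.83 and -1.42. It was also lost without the filter on low counts, at -1.65, and with a replicate block by the first part of the mouse number, at -1.69 (SE 0.77, unadjusted p = 0.0611 in edgeR). Among the other genes of this side, C1qc at 1.10 (SE 0.81) and C1qa at 0.72 (SE 0.70) had values above 0 and Csf1r at -0.40 (SE 0.49) below. Endothelial genes were lower in right ELE in 4 of 10 cases, genes of meninges and choroid plexus in 5 of 9 and globin genes in 3 of 4 by the same rule, and their part in the Cx3cr1 value was not tested.

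**Figure D5:**
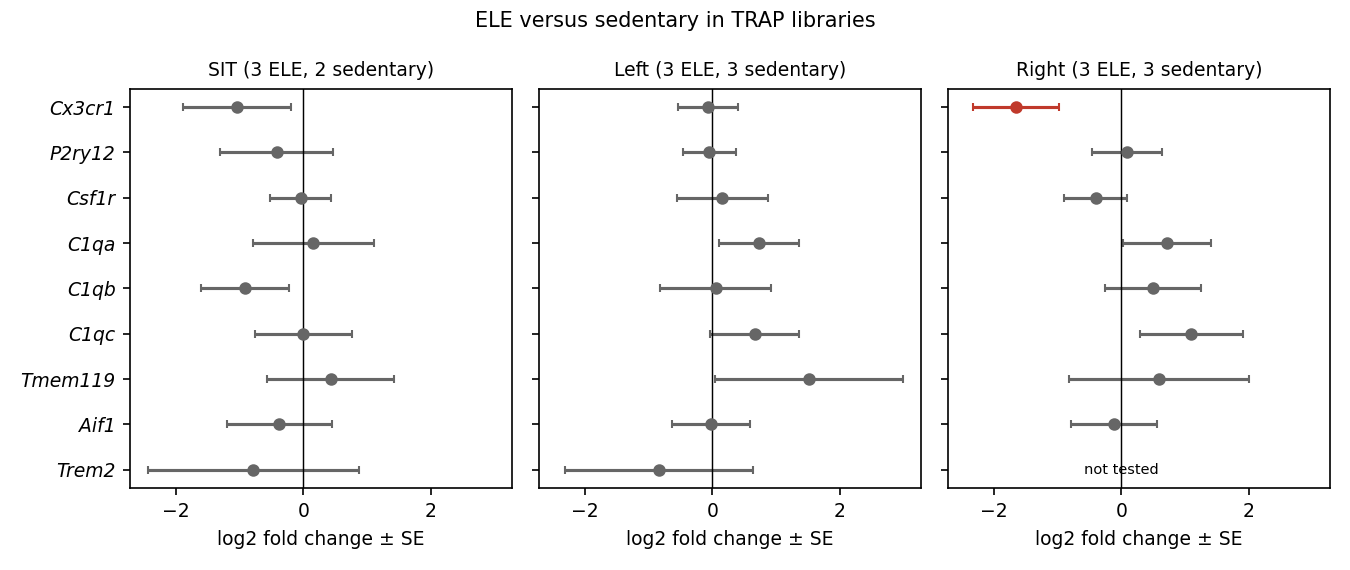
Log2 fold change of ELE against sedentary for each microglial gene in SIT, left and right hippocampus, with standard errors. The only gene past the threshold is Cx3cr1 in the right hippocampus, at -1.65 with an SE of 0.67.

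Whether exercise acted differently by side was tested with the interaction over the 12 separate libraries. It called 0 of 9 genes, where 2.2% of 18810 genes were called and 0% after adjustment. Cx3cr1 had an interaction of 1.58 on the log2 scale (SE 0.75, unadjusted p = 0.0532 in edgeR), which missed the threshold, and which it passed when TG7.3.2, TG9.2.2, TG7.3.1 or TG9.1.1 was left out. Averaged over exercise, 1 of 9 genes was called between the sides, where 1.43% of genes were called and 0% after adjustment. This was Cx3cr1 again, higher on the left by 0.94 (SE 0.37, unadjusted p = 0.0263 in edgeR, adjusted p = 0.9999), and the call was lost without TG9.1.4, TG7.3.4, TG9.2.1 or TG9.1.1, at 0.73 to 0.88. By the same rule 4 of 10 genes of meninges and choroid plexus were higher on the left and 3 of 10 endothelial genes were lower, and their part in the Cx3cr1 value was not tested. That contrast uses the low right ELE values too, and it shares its libraries with the exercise comparisons. The other 8 genes ran from -0.25 for Aif1 (SE 0.46) to 0.82 for Trem2 (SE 1.17).

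Of the 16 partner genes, 11 to 15 passed the filter in the SIT, left, right, interaction and side comparisons, and 0 were called in each. Of the further microglial genes, 23, 19 and 15 passed the filter in SIT, left and right, and 0 were called in each. The interaction called 1 of 23 as higher, beside 2.2% of all genes called in either direction.

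Among the wild-type columns, 4 named HC, a label the sources used here do not explain, differed from the other 20 in some of the genes. P2ry12 was 35.7 to 46.6 CPM in them against 23.9 to 30.0 CPM, Aif1 1.05 to 1.37 against 0.264 to 0.869 CPM, and Trem2 3.86 to 6.60 against 2.32 to 3.60 CPM. These 3 genes lay above without overlap, as did 11.2% of the 22115 genes compared. Csf1r lay below, at 65.9 to 69.6 against 81.3 to 100.7 CPM, as did 10.1% of genes. The sum of the 9 genes did not separate these columns, which were compared without a test, at 261 to 313 CPM against 260 to 308 CPM. The other 20 include LBN21.1.1 and LBN21.1.2, whose names the sources used here do not explain either.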

How the data were processed

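TRAP RNA from 20 Emx1-NuTRAP libraries and bulk RNA in 24 wild-type columns was analysed from 2 tables of whole-number counts per gene that the authors deposited without normalization. By the submitters' processing notes and the study's methods, reads were checked with FastQC 0.11.9, aligned to GRCm38 with STAR 2.7.3a, stripped of duplicates with Picard 1.87 and counted on exons with GenomicAlignments, with R 4.1.0 and DESeq2 1.32.0 for the authors' tests. Removing duplicates can understate abundant genes.

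TRAP columns carry mouse numbers, which the study's own list of mice ties to groups. The libraries it left out (NT6.304, NT7.2.3 and NT7.2.4) were identified in an earlier analysis of these data from the mean counts it lists. It gives as reasons much RNA other than mRNA in a pair of sedentary libraries and an exercised library apart in its principal components. The gene tables were joined by symbol.

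Counts were tested with edgeR 4.0.16 (quasi-likelihood, TMM, filterByExpr) in R 4.3.3, with DESeq2 1.42.0 as an alternative. The SE given with an edgeR log2 fold change is the size of that change divided by the square root of the quasi-likelihood F statistic. The script was tested on simulated data, with effects only in genes above a minimum mean count and a fixed spread between libraries. The comparison of SIT with bulk was not among those simulated. That test does not show what could be recovered for genes with few counts. A group had 3 or 4 TRAP libraries, and p-values were adjusted over all genes tested. Levels are CPM of the total counts, and RPKM uses exonic length. Of the fixed lists, the up to 4 genes with the highest mean CPM over the TRAP libraries and all partner genes could be named, others only where stated as exceptions or among 5 or fewer, chosen after their values were seen. The 9 genes and the lists were chosen with earlier results of these data known. Libraries of a group differed by more than counting error (chi-square per degree of freedom at least 18.9), so no library was counted as a repeat of another.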

Additional observations from a re-analysis of the deposited data

Results flagged for a closer look

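In the SIT ELE group, Csf1r in the library NT6.304 was 5.18 CPM, far from the other 3, which lay between 1.12 and 1.33 CPM. Its gap to the nearest of them made up 0.948 of the range of the group, above Dixon's 95% critical value of 0.829 for 4 libraries. Among 20 groups of values tested in this way, chance alone gives about 1 in 20. NT6.304 is also the library with the highest Npy level (772 CPM), while the other 9 interneuron genes summed to 115 CPM there, and the study left it out. Whether these values are linked was not tested.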

How the results depend on the processing

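The count of the 9 genes called under each alternative was recomputed, and 104 recomputed counts stayed within 1.5 times and 22 did not. In SIT, ELE against sedentary called 9 with all 8 libraries in place of 0, and 0 to 1 when each library was left out in turn (C1qb without TG7.4.2). Leaving out 1 of the 2 sedentary libraries there assumes that the lone one varies like the ELE libraries. In the right hippocampus the 1 call became 0 without the filter on low counts and 0 with a replicate block by the first part of the mouse number, and was 0 to 1 when each library was left out. The interaction called 1 with DESeq2 and 0 to 1 when each library was left out, in each case Cx3cr1. Left against right called 0 without the filter and 0 to 1 when each library was left out. SIT against separate called 8 to 9 when each library was left out, 1 without the 3 libraries the study left out, and 2 without NT7.2 (an alternative chosen after seeing the data). With sedentary libraries only it called 9, with the median of the 9 genes at 5.21 in place of 2.97. In that comparison P2ry12 changed sign to -0.13 and -0.033 under these choices, and Csf1r to -0.24 under the first. SIT against bulk called 4 (3 lower and Aif1 higher) with sedentary libraries only, where Trem2 stood at 0.059, and 8 to 9 when each TRAP library of the groups compared was left out. Separate against bulk called 9 throughout. With the replicate block the left comparison and the interaction called 0 and left against right called 1. Deviations of the separate libraries from their group means correlated with a median of 0.006 within a mouse number prefix, with 3 of 18 pairs over 0.1. Between prefixes the median was 0.011, with 3 of 36 pairs over 0.1. The largest values were 0.380 within a prefix and 0.188 between prefixes. With 3 libraries in a group these correlations cannot show whether the prefix paired the libraries. Leaving out 1 NT7.2 library at a time did not show their joint weight, since the other remained. The low counts of most of these genes (7 to 83 for Cx3cr1 in the 18 libraries) limit what an exercise comparison could detect. The causes of these changes were not tested beyond the libraries and genes that each choice removed.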

Other observations

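Outside the 9 genes themselves, the genes whose CPM followed the summed microglial level most closely over the 20 TRAP libraries included no gene of the microglial lists. By Spearman's rho the first were Syt6 (0.859), a synaptotagmin, Hccs (0.817), the mitochondrially encoded mt-Nd2 (0.811), Pgd (0.809) and Dlx6 (0.809), a transcription factor of interneurons, followed by mt-Atp6 (0.808), Rab10, Pxk and Gm10925 (0.803 each) and Arf2 (0.802). These are descriptions over 20 libraries that share depth and isolation. Over the 18 libraries without NT7.2, an alternative chosen after seeing the data, the order led with Mrpl30 (0.851), and 0 of the first 10 genes as listed were shared. Arf2 (0.822) tied there with Srek1ip1, the last of those 10, so that count rests on how ties were ordered. Syt6 stood just below, at 0.818. Among the 9 microglial genes themselves, Tmem119 followed the sum most closely (0.875 over 20 libraries and 0.831 over 18) and P2ry12 least (0.173 and -0.14). Each gene is itself part of the sum, by unequal shares, so this order is partly set by construction.

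The make-up of the microglial signal also differed between sets of libraries. Csf1r made up 29.8% to 34.8% of the summed CPM in the 20 wild-type columns outside HC and 21.9% to 25.2% in the 4 HC columns, beside 21.7% and 19.4% in NT7.2.3 and NT7.2.4 and 9.26% to 54.2% in the 18 other TRAP libraries. Aif1 made up 0.841% and 1.25% there against 0.0885% to 0.302% in the 20 bulk columns and 0.384% to 0.516% in the HC columns. Its median share was 7.23% in the 18 other TRAP libraries, whose shares rest on few counts.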
